A study of Mus musculus with 4 samples.

Results

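The 525 spots described here are the Gpnmb and Trem2 rich spots of 3 mouse liver sections injured with carbon tetrachloride (CCl4), measured with Visium, an array of barcoded spots that captures RNA from a tissue section. They were chosen by measured values: in each section, the 5 percent of spots with the highest share of Gpnmb and Trem2 among all UMIs (unique molecular identifiers, 1 per captured molecule) were taken, out of 10543 spots with 2000 or more UMIs in these sections and 13640 spots in the whole series. The Hk2-deleted fibrotic section gave 192 rich spots of 3850, fibrotic replicate 1 gave 205 of 4117 and fibrotic replicate 2 gave 128 of 2576. They were set against the spots of the same section that held no UMI of either gene, of which there were 1484, 1208 and 1033 in the same order of sections. Levels of Gpnmb and Trem2 are therefore given as a description, and both genes were left out of every test.

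All 4 sections came from male mice aged 5 months with a floxed Hk2 gene (hexokinase 2, the enzyme that traps glucose in the cell for glycolysis), and all mice received tamoxifen at 75 mg/kg for 5 days followed by a wait of 2 weeks. In the PDGFRBcreERT2/Hk2fl/fl mouse behind the Hk2-deleted fibrotic section (n = 1), an inducible Cre is driven by the Pdgfrb promoter, active in hepatic stellate cells and other mural cells. The 2 fibrotic sections came from Hk2fl/fl littermates, and both groups were dosed with CCl4 (1 µL/g, 2 times weekly). Treatment lasted 6 weeks according to the design text, whereas the protocol says 4 or 6. The healthy section (n = 1) came from an Hk2fl/fl mouse given olive oil. Each section is a single mouse, so the section is the replicate and spots are not. Hk2 itself was low in all sections, with 3.50 raw CPM (UMIs of a gene for every 1000000 UMIs) in the Hk2-deleted section (95% exact Poisson interval 3.06 to 3.98), 4.88 and 3.94 in the fibrotic pair and 1.85 in the healthy liver. Section totals ran from 40585039 to 67479047 UMIs, and 1 to 17 spots per section fell under 2000 UMIs. Fibrotic replicate 1 stood apart from its label: the Y-linked transcript Ddx3y was at 0.415 raw CPM there, against 47.0 to 52.4 in the other sections. Results were therefore also computed without that section.

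Gpnmb encodes glycoprotein NMB, a transmembrane protein of phagocytes rich in lysosomes, and is a target of the MiT/TFE factors that drive lysosomal genes. Trem2 encodes a macrophage receptor for lipids and cell debris that signals through the adaptor Tyrobp (DAP12) and the kinase Syk. Macrophages that express both, often with Cd9, Spp1, Fabp5 and lysosomal hydrolases, are known from scars of injured liver and from lipid-laden tissue, where they are called lipid-associated or scar-associated macrophages. CCl4 is activated by Cyp2e1 in hepatocytes around the central vein, so injury and repair are known to start in that pericentral zone.

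The 5′ ends of the genes that chose the spots are shown with that of Ctsd, the gene of the lysosomal protease cathepsin D, which was higher in the rich spots. Each stretch holds 100 bases before and 30 bases after the annotated start (RefSeq, GRCm38.p6). Capitals mark the letters of an AP-1 motif (TGACTCA or TGAGTCA), of a CACGTG E-box, the type bound by MiT/TFE factors, or of a PU.1 core (GAGGAA or TTCCTC), each searched on both strands.
Gpnmb, chr6:49036418-49036547, plus strand: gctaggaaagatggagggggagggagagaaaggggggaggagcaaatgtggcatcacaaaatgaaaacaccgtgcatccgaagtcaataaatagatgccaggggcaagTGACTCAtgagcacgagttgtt
Trem2, chr17:48346301-48346430, plus strand: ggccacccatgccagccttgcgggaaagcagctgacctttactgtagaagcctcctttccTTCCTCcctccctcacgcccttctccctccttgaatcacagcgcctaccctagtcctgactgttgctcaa
Ctsd, chr7:142387798-142387927, minus strand: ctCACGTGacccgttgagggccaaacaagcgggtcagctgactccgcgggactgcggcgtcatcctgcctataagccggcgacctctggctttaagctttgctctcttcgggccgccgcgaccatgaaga
Over windows of 300 bases at gene starts, CACGTG was held by 11 of the 27 lysosome-list genes with an entry, 40.7%, against 8.09% of 27025 genes in all. The AP-1 letters were held by 5 of 19 listed genes of lipid-associated macrophages, 26.3%, against 5.95% of all. The PU.1 core was held by 8 of 12 genes of the monocyte and pan-macrophage list, 66.7%, against 31.3% of all. For the other pairs of motif and list, in the lysosome list 3 of 27 held the AP-1 letters (11.1%) and 12 of 27 the PU.1 core (44.4%), in the lipid-associated macrophage list 1 of 19 held CACGTG (5.26%) and 7 of 19 the PU.1 core (36.8%), and in the monocyte and pan-macrophage list 0 of 12 held CACGTG and 0 of 12 the AP-1 letters. These are matches of letters and show no binding.

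Gpnmb and Trem2 were near absent from the healthy section. Gpnmb was at 61.2 raw CPM in the Hk2-deleted section, at 100.3 and 80.9 in the fibrotic pair and at 0.185 in the healthy liver (95% exact Poisson interval 0.0888 to 0.340, from 10 UMIs, counting error only). Trem2 was at 20.2, 32.1 and 17.6 raw CPM in the same CCl4 sections and at 1.17 in the healthy section (0.896 to 1.49, from 63 UMIs). A Gpnmb UMI was found in 51.7% of spots of the Hk2-deleted section, in 62.7% and 54.4% of those of the fibrotic pair and in 0.326% of healthy spots (exact binomial interval 0.157% to 0.599%). No healthy spot held both genes. In the authors' deposited table of spatial scores, Moran's I, which is positive where neighbouring spots resemble each other, was 0.101 for Gpnmb in the Hk2-deleted section, 0.121 and 0.144 in the fibrotic pair and -0.00292 in healthy liver. For Trem2 the authors' deposited table gives 0.0348, 0.0596 and 0.0565 in the CCl4 sections.

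Rich spots rested on few UMIs of the 2 genes. The median rich spot held 4 Gpnmb UMIs in the Hk2-deleted section and 6 in each fibrotic section, with a highest count of 25, 66 and 18. Trem2 had a median of 1, 2 and 1 UMIs. All rich spots but 1 held Gpnmb, and both genes were found in 142 of 192, 167 of 205 and 84 of 128. The rich spots held 24.2%, 23.5% and 24.5% of their section's Gpnmb UMIs and 19.4%, 18.1% and 18.7% of its Trem2 UMIs, with 4.32%, 5.17% and 4.05% of all UMIs. The lowest share taken was 304, 378 and 396 raw CPM for the 2 genes together, and the highest share not taken was 304, 377 and 394, so the limit cuts through a continuous range. Spots chosen by Gpnmb alone and spots chosen by Trem2 alone overlapped in part, though most were different ones. Shared were 45 of 192 spots in the Hk2-deleted section, 48 of 205 in fibrotic replicate 1 and 31 of 128 in fibrotic replicate 2. These are 23.4%, 23.4% and 24.2% of either set, where 2 unrelated sets of 5 percent of spots would share about 5 percent. Over all spots of a section with 2000 or more UMIs, the shares of the 2 genes correlated with r = 0.262, 0.312 and 0.283, where both shares have the same spot total as denominator.

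Rich spots lay around the central vein. A zone score was taken as the mean z of 9 pericentral genes minus the mean z of 12 periportal genes, and each section was split by it into 3 equal zones. The pericentral zone held 87.0% of the rich spots of the Hk2-deleted section, 75.6% and 85.9% of those of the fibrotic sections, against 18.8%, 13.0% and 15.8% of the spots without either gene. The periportal zone held 1, 2 and 0 rich spots, against 700, 702 and 503 of the other kind. Many rich spots were also collagen-high. Collagen-high spots were the 10 percent that ranked highest by the UMI share of Col1a1, Col1a2 and Col3a1. They held 30.2%, 47.8% and 51.6% of rich spots, against 5.66%, 3.15% and 3.0% of spots without either gene. Such spots are called scar below for short, but collagen alone chose them, and liver surface or vessel wall was not set apart. Spots that held or touched a spot with a UMI of Msln or Upk3b, markers of the mesothelium that covers the liver, made up 37.0%, 43.4% and 1.56% of rich spots, against 29.4%, 28.4% and 2.13% of the other kind. Fibrotic replicate 2 thus had almost no liver surface. Without such surface spots, collagen made up 0.132%, 0.251% and 0.170% of UMIs in rich spots, against 0.356%, 0.318% and 0.172% with them. Depth was higher in rich spots of fibrotic replicate 1 and close in the other sections, with median UMIs of 13189, 15726 and 12399.5 in rich spots, against 13712.5, 12211.5 and 12387 in spots without either gene.

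**Figure D1:**
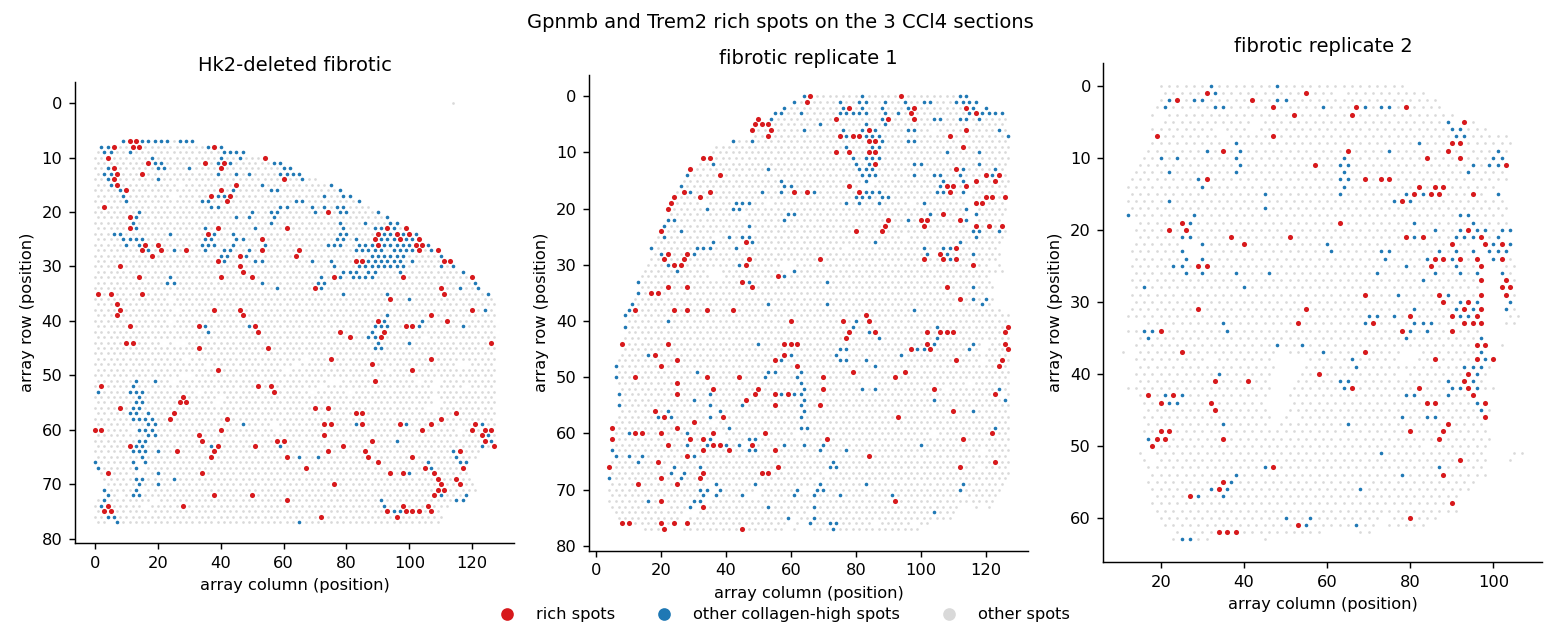
Each panel is 1 CCl4 section in array coordinates (columns across, rows down). Red points are the 192, 205 and 128 rich spots, blue points are other collagen-high spots and grey points are all other spots; rich spots are scattered over the tissue, and many sit at or next to collagen-high patches.

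**Figure D2:**
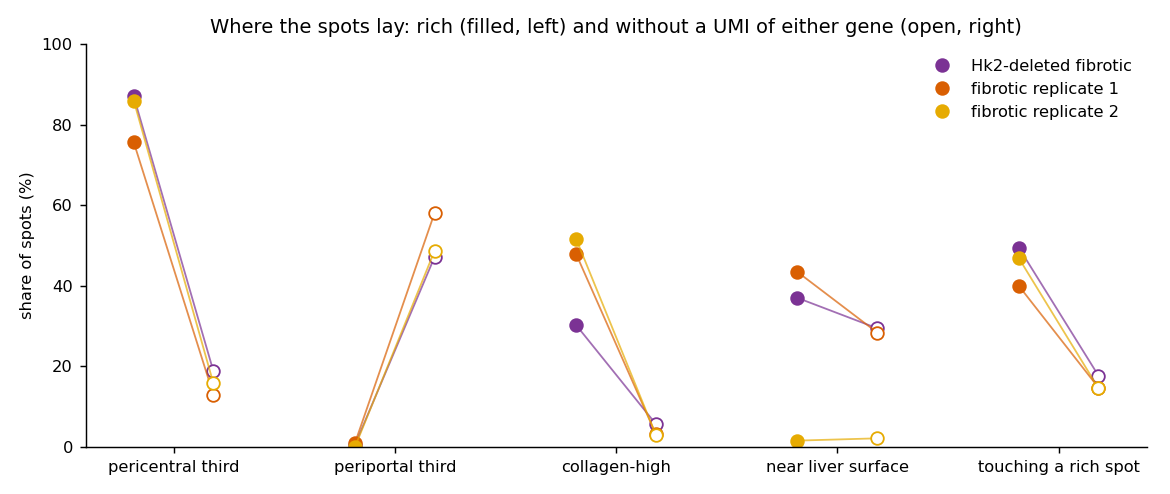
The share of spots (y, percent) in each place, by section. Filled points on the left are rich spots and open points on the right are spots without a UMI of either gene, joined per section; rich spots lie higher for the pericentral zone and collagen-high tissue in all 3 sections, and the surface share differs most between sections.

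The rich spots were small and dispersed. Spots that touched each other formed 135, 156 and 90 patches in the 3 sections, of which 97, 123 and 68 were a single spot, and the largest patch had 6, 7 and 5 spots. A rich neighbour was nonetheless more frequent beside a rich spot: 49.5%, 40.0% and 46.9% of rich spots touched another, against 17.7%, 14.7% and 14.6% of spots without either gene. Markers for macrophages in general (the monocyte and pan-macrophage list) made up a median of 13.8, 18.1 and 14.5 UMIs per 10000 in rich spots, against 7.26, 7.55 and 5.77 in the other kind. The ranges overlap: the lowest-scoring 5% of rich spots were at or under 7.76, 10.4 and 6.33 per 10000, and the highest 5% of the others at or over 14.3, 15.2 and 12.7.

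Across all genes, 2223 of 12186 tested genes were higher in rich spots, 18.2%, and 2150 were lower, 17.6% (edgeR's quasi-likelihood test on counts summed per section and spot kind, section as block, Benjamini-Hochberg adjusted p under 0.05). All folds below come from this fit unless another is named, with values as normalised CPM (CPM after TMM scaling). The fit has 6 summed libraries and 2 residual degrees of freedom, so its p-values lean on the spread shared over all genes. The median log2 change over all genes was 0.01 with TMM and 0.30 when only library size was used. With library size alone, 5622 genes were higher, 46.1%, and 672 lower, 5.51%. Changes are thus relative to the median gene. In summed spots, more cells of a type and more RNA per cell cannot be told apart.

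The genes of lipid-associated macrophages rose as a group. Of 24 tested members, 18 were higher and 2 lower, with a median log2 change of 0.92. Mmp12, a macrophage elastase, had 32.2 normalised CPM in rich spots of the Hk2-deleted section and 120.3 and 51.7 in those of the fibrotic sections, against 5.94, 27.7 and 8.60 in spots without either gene. Every rich value lay above its own section's other value, at a log2 change of 2.28 ± 0.10 (SE, adjusted p = 3.47e-10). Atp6v0d2, a subunit of the proton pump that acidifies lysosomes, had 23.0, 31.7 and 27.0 CPM in rich spots, against 5.89, 11.5 and 5.41, and the 2 sets of values did not overlap (1.81 ± 0.16). Ctsk, the collagen-cleaving cathepsin K, had 33.8, 35.9 and 21.1 CPM, against 8.70, 11.1 and 6.06 (1.82 ± 0.12). Syngr1 (synaptogyrin 1, a vesicle protein) rose by 1.88 ± 0.24, Lgals3 (galectin-3) by 1.43 ± 0.07 and Fabp5, a fatty acid carrier, by 0.88 ± 0.07. Cd63, a lysosomal tetraspanin, rose by 1.05 ± 0.13.

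Of the best-known scar-macrophage markers, Spp1 went the other way and Cd9 changed little. Spp1 (osteopontin, also made by bile duct cells) had 168, 262 and 156 CPM in rich spots, against 272, 309 and 294, which is -0.58 ± 0.09 (adjusted p = 0.000116). Within the pericentral zone Spp1 was at 0.18 ± 0.09 and not called, whereas against spots matched on collagen and zone it was called lower, at -0.34 ± 0.08. In raw CPM Spp1 had 189, 301 and 162 in rich spots, against 255, 284 and 252, so fibrotic replicate 1 went the other way. Cd9 had 28.7, 56.2 and 44.0 CPM, against 28.4, 36.3 and 31.7 (0.41 ± 0.11, adjusted p = 0.0076), and its 2 values in the Hk2-deleted section lay close together.

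The signalling chain of TREM2 was higher nearly throughout. Of 13 tested partners 12 were higher and none lower, with a median of 0.80. Tyrobp, the adaptor of the receptor, had 197, 278 and 193 CPM in rich spots, against 109, 135 and 103 (0.94 ± 0.06, adjusted p = 1.13e-08), and the values did not overlap. Syk, the kinase recruited to it, had 27.2, 38.4 and 19.4 CPM, against 14.6, 17.2 and 14.5 (0.93 ± 0.13). The adaptor Lat2 rose by 1.55 ± 0.21. Btk, a kinase shared with B cells, rose by 1.06 ± 0.29 in the fit, but in the Hk2-deleted section it was at 4.10 CPM in rich spots and 4.12 in the others.

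General macrophage markers rose in 15 of 16 tested members, with none lower and a median of 0.94. Cd68, a lysosomal glycoprotein of macrophages, had 144, 218 and 174 CPM in rich spots, against 83.0, 98.4 and 79.6 (1.02 ± 0.07). Csf1r, the receptor that keeps macrophages alive, had 151, 182 and 129 CPM, against 90.5, 109.7 and 86.1 (0.69 ± 0.06). The Fc receptor Fcgr3 rose by 1.12 ± 0.07, Itgam by 1.11 ± 0.20 and Cx3cr1, a chemokine receptor of monocyte-derived cells, by 1.08 ± 0.18. Adgre1, which encodes F4/80, rose by 0.62 ± 0.14, and Lyz2 by 0.71 ± 0.27 from levels of 2.43 to 5.74 CPM. The 3 complement genes C1qa, C1qb and C1qc, made by tissue macrophages, all rose, by 0.84 ± 0.06, 0.83 ± 0.06 and 0.75 ± 0.06.

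Genes of Kupffer cells, the resident macrophages of the sinusoids, were split. Of 14 tested members, 6 were higher and 5 lower, with a median of 0.22. With library size alone 9 were higher, 64.3%, and 1 lower, 7.14%, with a median of 0.51. For all genes that setting gave 46.1% higher, 5.51% lower and a median of 0.30. Clec4f, the marker most restricted to them, had 312, 446 and 385 CPM in rich spots, against 321, 329 and 338 (0.20 ± 0.08, adjusted p = 0.0514), and did not pass the test. Vsig4, a complement receptor, rose by 0.60 ± 0.08, and Id3, a factor needed for Kupffer cell identity, by 0.54 ± 0.06. Marco, a scavenger receptor, had 49.6, 49.4 and 34.6 CPM in rich spots, against 114, 170.3 and 78.1 (-1.46 ± 0.10). Marco is known as a gene of periportal Kupffer cells, and within the pericentral zone it was at -0.51 ± 0.11. Cd163 fell by 0.59 ± 0.18, but had 47.0 CPM in rich spots of fibrotic replicate 2 and 43.6 in its other spots.

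Lysosomal genes were higher in 19 of 35 tested members and lower in 3, with a median of 0.19. With library size alone 29 were higher, 82.9%, and none lower, against 46.1% and 5.51% of all genes. Ctss, cathepsin S, had 552, 627 and 544 CPM in rich spots, against 245, 246 and 200 (1.32 ± 0.06, adjusted p = 5.39e-10). Ctsd, whose 5′ end is printed above, had 406, 641 and 533 CPM, against 229, 303 and 263 (0.98 ± 0.06). Laptm5, a lysosomal membrane protein of blood cells, rose by 0.98 ± 0.06. Of the 8 MiT/TFE factors and partners, 3 rose and none fell. They were Mitf (0.94 ± 0.21), its nutrient-sensing partner Rragd (0.82 ± 0.23) and Tfe3 (0.45 ± 0.13), all at 21.2 CPM or less. None of the 8 was called against matched spots.

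Lipid handling and debris uptake changed in part. Of 15 cholesterol genes, 5 rose and 3 fell, with a median of 0.04. Soat1, which makes cholesterol esters for storage, had 25.3, 33.4 and 20.6 CPM in rich spots, against 12.4, 14.3 and 10.5 (1.10 ± 0.12). The lipid transfer protein Pltp rose by 0.78 ± 0.07, the exporter Abcg1 by 0.71 ± 0.14 and the ester hydrolase Nceh1 by 0.49 ± 0.08. Of 15 genes of efferocytosis, the uptake of dying cells, 8 rose and 2 fell. Cd300lf, a phosphatidylserine receptor, rose by 1.21 ± 0.13, Axl by 0.89 ± 0.06 and the integrin Itgb5 by 0.61 ± 0.06.

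**Figure D3:**
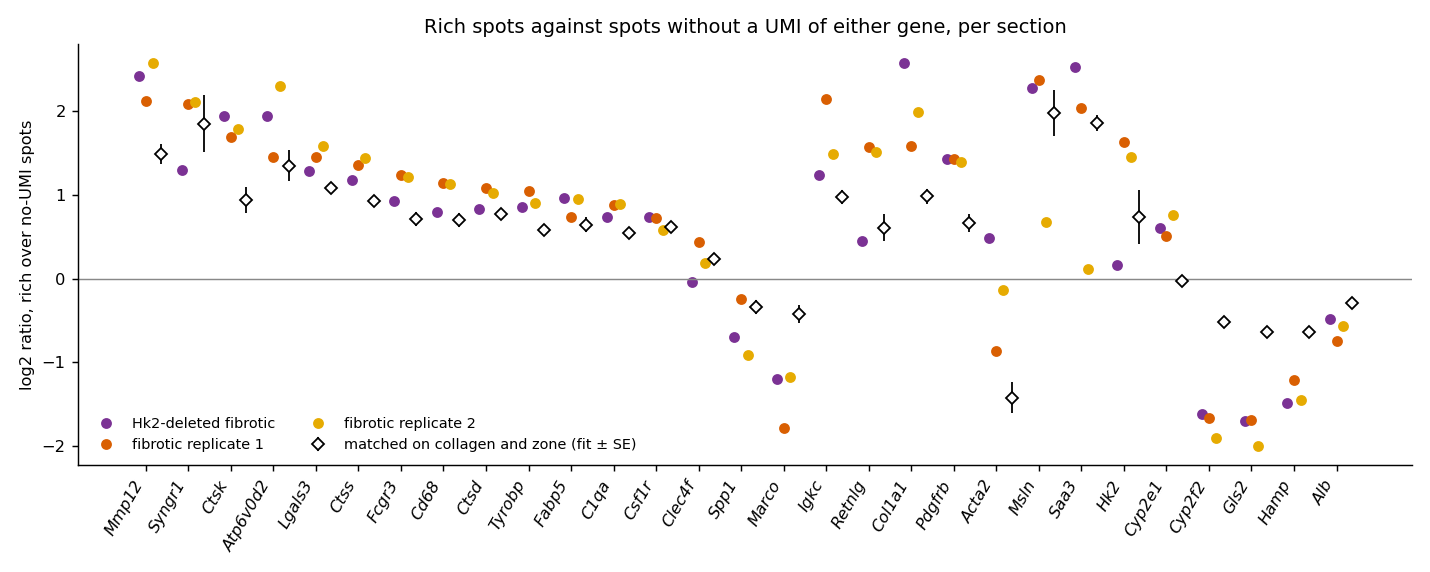
Log2 ratio of rich over no-UMI spots (y) for 29 genes (x), with 1 coloured point per CCl4 section; open diamonds with bars are the fit against spots matched on collagen and zone, ± SE. Macrophage genes from Mmp12 to Csf1r lie above 0 in all sections and in the matched fit, whereas Cyp2e1 falls to -0.02 there and Acta2 to -1.42.

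Over the summed spots, genes of other immune cells moved with the macrophage genes. Of 14 B and plasma cell genes, 13 were higher and 1 lower, with a median of 1.48. Igkc, the kappa light chain, had 3668, 6430.3 and 2269 CPM in rich spots, against 1558, 1457 and 807 (1.62 ± 0.12), and Ighg2c rose by 1.79 ± 0.14; immunoglobulin segments share sequence, so reads may be split among them. The plasma cell signal was uneven within the rich spots, whose median was 31.0, 40.6 and 19.6 UMIs of the list per 10000 while the top 5% reached 301 or more, 583 or more and 234 or more. Of 14 neutrophil genes 12 rose, among them Retnlg (1.33 ± 0.16), the growth factor receptor Csf3r (1.26 ± 0.12) and the gelatinase Mmp9 (1.35 ± 0.11). The median spot of the Hk2-deleted section was not higher, with 10.6 UMIs of that list per 10000 in rich spots and 10.9 in the others. Its top 5% reached 32.3 or more in rich spots, against 19.6 or more. Of 14 genes of MHC class II and dendritic cells, 8 rose. Cd74, the invariant chain, had 1542, 2298 and 1731 CPM, against 828, 1131 and 655 (1.10 ± 0.08), and its transactivator Ciita rose by 1.03 ± 0.12. Of 15 T and NK cell genes 5 rose, such as Trbc2 (0.80 ± 0.19). The part of these other cell types in the macrophage result was not tested.

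Transcripts of some growth factors and chemokines rose. Of 12 genes on the list of macrophage-derived growth factors, 6 rose and 4 fell. Which cells of the spots made them was not tested. Tgfb3 rose by 1.72 ± 0.18 and Pdgfb, a mitogen for stellate cells, by 1.24 ± 0.15, whereas Hbegf had 1.26, 0.749 and 0 CPM in rich spots, against 2.39, 2.50 and 2.21. Of 21 chemokines and cytokines 11 rose and 3 fell. Ccl3 rose by 1.47 ± 0.30, Ccl2 by 1.35 ± 0.38 and Tnf by 1.33 ± 0.37, with no section above 8.81 CPM for any of them.

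Collagen and other matrix genes were among the strongest increases. All 5 tested fibrillar collagen genes rose, with a median of 1.64, as did 27 of 30 other matrix genes, with 1 lower. Col1a1 had 962, 773 and 453 CPM in rich spots, against 161, 258 and 114 (2.05 ± 0.12), and the crosslinking enzyme Lox rose by 2.70 ± 0.41. Lum, the collagen-binding lumican, had 230.5, 273 and 213 CPM, against 55.2, 93.2 and 49.8 (1.88 ± 0.09). Of 17 proteases and inhibitors, 16 rose and 1 fell. Adam8, a protease of myeloid cells, had 20.5, 32.9 and 35.2 CPM, against 6.64, 6.26 and 8.44 (2.04 ± 0.16), and Timp1 rose by 2.29 ± 0.33.

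Of 23 stellate cell and myofibroblast genes 16 rose and none fell. Pdgfrb, the receptor of stellate cells, had 54.3, 62.4 and 52.9 CPM in rich spots, against 20.1, 23.0 and 20.1 (1.43 ± 0.09), and the values did not overlap. Pdgfra rose by 1.66 ± 0.10 and Dpt (dermatopontin) by 1.55 ± 0.13. Acta2, the smooth muscle actin of contractile myofibroblasts and vessel walls, had 25.3, 10.5 and 4.70 CPM, against 18.1, 19.1 and 5.16 (-0.10 ± 0.21, adjusted p = 0.744). Its direction differed between sections, and with library size alone it was 0.19. Of 6 genes of the smooth muscle and pericyte list, 1 rose and 1 fell. Smtn, smoothelin, had 32.5, 30.9 and 18.2 CPM in rich spots, against 18.5, 21.3 and 16.3 (0.58 ± 0.12, adjusted p = 0.00118). Myh11, a smooth muscle myosin, was at -0.78 ± 0.25, but above 0 in fibrotic replicate 2.

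Several of the largest increases were genes of the liver surface. All 9 tested mesothelial genes rose, with a median of 2.32. Msln (mesothelin) had 19.3 and 19.2 CPM in rich spots of the Hk2-deleted section and fibrotic replicate 1, against 3.88 and 3.62, and only 0.587 against 0.328 in fibrotic replicate 2. Wt1, a factor of mesothelium and stellate cells, rose by 2.50 ± 0.23. Saa3, an acute phase protein, had 506, 57.9 and 4.70 CPM, against 87.3, 14.0 and 4.34 (2.31 ± 0.14). Without spots at the surface Saa3 was at -0.03 ± 0.18 and Wt1 at 2.19 ± 0.32. The adhesion receptor Adgrd1 had the largest change that the naming rule admits (2.88 ± 0.21), and at the rule's other places stood Igfbp6 (2.57), the protease inhibitor Slpi (2.52), Ltbp2 (2.48), the BMP antagonist Nbl1 (2.41), Igkv19-93 (2.40), Fbn2 (2.29), Mmp12 and Ncam1 (2.25). Without surface spots Adgrd1 was at 1.29 ± 0.55 (adjusted p = 0.074). Mmp12 was at 2.27 ± 0.12, almost its value over all spots.

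Pericentral hepatocyte genes were mostly higher and periportal ones mostly lower. Of 8 pericentral landmarks 7 were higher, such as the glutamate transporter Slc1a2 (1.53 ± 0.11), Oat (1.00 ± 0.09) and Cyp2e1, which had 4973, 4182 and 5428 CPM, against 3268, 2927 and 3203 (0.63 ± 0.06). Of 12 periportal landmarks 10 were lower and none higher. Cyp2f2, the portal cytochrome P450, had 325, 606 and 514 CPM in rich spots, against 994, 1925 and 1919 (-1.72 ± 0.07). The largest decreases that the rule admits included amino acid enzymes known from periportal hepatocytes, namely Hal (-1.85), Etnppl (-1.80), Gls2 (-1.78), Sds (-1.74), Aspg (-1.59) and Sdsl (-1.56), together with Defb1 (-2.0), Clec2h (-1.94), Cyp17a1 (-1.64), Hsd17b6 (-1.61) and Aldh1b1 (-1.59). All 14 secretory hepatocyte genes fell, with a median of -0.62. With library size alone 11 of them were lower, 78.6%, and none higher, with a median of -0.33. Alb, albumin, had 53869.6, 85976 and 82635 CPM, against 74902, 144423 and 121909 (-0.59 ± 0.07). Of 16 acute phase genes 12 fell, among them Hamp, the iron hormone hepcidin (-1.37 ± 0.07), and Orm3 (-1.36 ± 0.09), and 1 rose. With library size alone 12 of the 16 fell and 4 rose.

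Endothelial genes were split. Of 22 endothelial genes, 5 were higher and 10 lower with a median of -0.21. With library size alone 9 were higher, 40.9%, and 4 lower, 18.2%, with a median of 0.08. For all genes that setting gave 46.1% higher, 5.51% lower and a median of 0.30. Rspo3, the Wnt amplifier made at the central vein, had 55.6, 71.9 and 82.8 CPM, against 21.9, 24.0 and 19.8 (1.62 ± 0.11), and Wnt9b rose by 1.68 ± 0.32. Lyve1, a marker of midlobular sinusoids, fell by 1.48 ± 0.31.

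Glycolysis, the pathway of the deleted gene, rose in part. Of 14 tested genes 7 were higher and 2 lower, with a median of 0.47. Against spots matched on collagen and zone, 1 of 14 was called higher, 7.14%, close to the 5.93% of all genes. Within the pericentral zone it was 6 of 14, 42.9%, against 10.5% of all genes. Hk2 had 3.79 CPM in rich spots of the Hk2-deleted section and 11.2 and 9.40 in those of the fibrotic sections, against 3.37, 3.55 and 3.36 in spots without either gene (1.19 ± 0.27, adjusted p = 0.00267). The rich spots of the Hk2-deleted section were thus the lowest of the 3, while the other spots were alike. These Hk2 levels rest on few UMIs and 1 Hk2-deleted mouse, and an effect of the deletion cannot be told from them. Hk1 rose by 0.66 ± 0.12 and Hk3, the hexokinase of myeloid cells, by 0.56 ± 0.12. Slc16a3, a lactate exporter, rose by 1.48 ± 0.25 and Pkm, the pyruvate kinase of non-hepatocytes, by 0.88 ± 0.07.

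Stress, vesicle and cell cycle genes gave mixed counts. Of 17 p53 and oxidative stress genes 5 rose, 29.4%, and 4 fell, 23.5%, against 18.2% and 17.6% of all genes. Phlda3 rose by 1.61 ± 0.15 and Cdkn1a, which encodes p21, by 1.09 ± 0.14, while the metallothionein Mt2 fell by 1.22 ± 0.07. Of 18 vesicle genes 5 rose, 27.8%, including Anxa2 (0.92 ± 0.06) and Sdcbp, syntenin (0.61 ± 0.06), and Sdc1 fell by 0.78 ± 0.06. Among 13 genes of iron and haem handling 4 rose and 6 fell. With library size alone 7 were higher, 53.8%, and 2 lower, 15.4%, against 46.1% and 5.51% of all genes. Slc11a1, a phagosomal metal pump, rose by 0.79 ± 0.09 and Hmox1 by 0.48 ± 0.11. Of 12 cell cycle genes only Mki67 was called (0.35 ± 0.13, adjusted p = 0.0404). Of 13 interferon genes 6 rose, such as Ifit2 (0.73 ± 0.14).

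**Figure D4:**
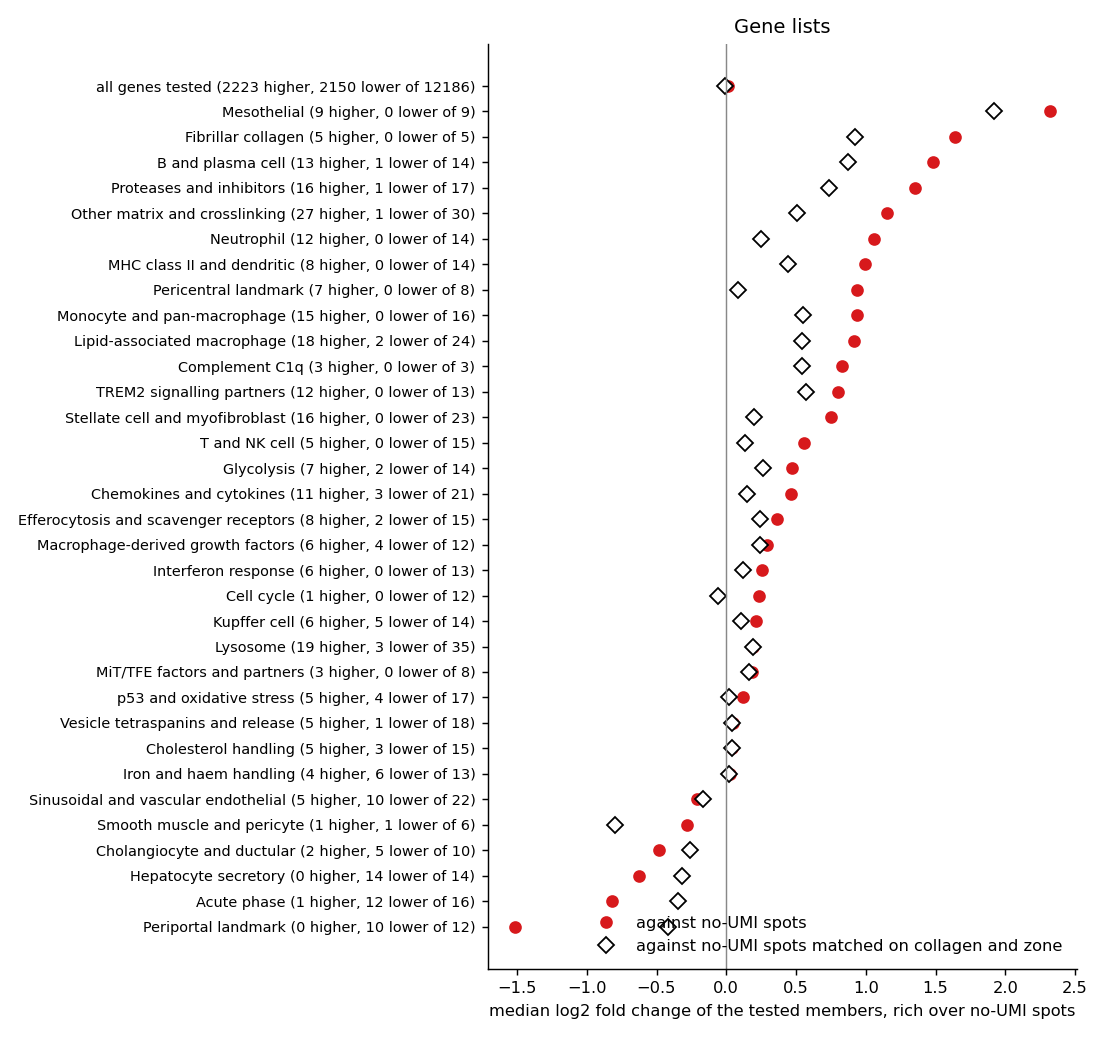
Median log2 fold change (x) of each gene list in rich over no-UMI spots, with the counts of higher and lower members in the labels. Red points are the comparison with all no-UMI spots and open diamonds the one with no-UMI spots matched on collagen and zone; the median of all genes is 0.01 and -0.01.

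Because the 2 kinds of spots lay in different places, each rich spot was also paired with a spot without either gene of like collagen share and zone score. Neither collagen nor zone could be matched fully. Collagen made up 0.356%, 0.318% and 0.172% of UMIs in rich spots, against 0.136%, 0.202% and 0.112% in matched ones. Cyp2e1 was at -0.02 ± 0.05 and not called, but Cyp2f2 was still called lower, at -0.51 ± 0.07. Of 10810 genes, 641 were higher, 5.93%, and 672 lower, 6.22%, and 630 and 633 of these had been called in the same direction before. The macrophage genes stayed higher. Called members were 13 higher and 1 lower of 24 for lipid-associated macrophages (median 0.54), 8 higher of 12 for TREM2 partners (0.57), 11 higher of 16 for general macrophage markers (0.55), 3 of 3 for C1q and 16 of 35 for the lysosome (0.19), with none lower in the last 4 lists. Syngr1 was at 1.85 ± 0.34, Mmp12 at 1.49 ± 0.12, Atp6v0d2 at 1.35 ± 0.18, Lgals3 at 1.08 ± 0.07 and Ctss at 0.93 ± 0.06. Clec4f was then called (0.24 ± 0.07, adjusted p = 0.015). Of 14 B and plasma cell genes 11 were called higher and of 14 neutrophil genes 5, and none of 9 tested T and NK cell genes was called. Pericentral landmarks had 2 higher and 1 lower of 8, and periportal ones 1 higher and 9 lower of 12 (median -0.42), although these genes made the score. All 14 secretory hepatocyte genes were still lower, at a median of -0.31. Acta2 was called lower against matched spots, at -1.42 ± 0.19, as was Myh11 at -1.81 ± 0.26, while Pdgfrb remained higher at 0.66 ± 0.11. Hk2 was at 0.74 ± 0.32 and not called (adjusted p = 0.14). Of 14 glycolysis genes 1 was called higher, 7.14%, and none lower, with a median of 0.26.

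Within the pericentral zone alone, a comparison added after the positions were seen, 1115 of 10624 genes were higher, 10.5%, and 1133 lower, 10.7%. Lipid-associated macrophage genes had 16 higher and 1 lower of 24, TREM2 partners 11 higher of 12, and secretory hepatocyte genes 14 lower of 14. Periportal landmarks still had 1 higher and 9 lower of 12, with a median of -0.52. Mmp12 was at 1.48 ± 0.13, Alb at -0.42 ± 0.12 and Cyp2e1 at -0.18 ± 0.09.

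Macrophage genes were also higher outside collagen-high spots. When collagen-high spots were left out of both kinds, 1135 of 11789 genes were higher, 9.63%, and 1060 lower, 8.99% (edgeR as above, the 3 collagen genes not counted). Called members were 15 higher and 2 lower of 24 for lipid-associated macrophages, with a median of 0.80, 7 higher of 13 TREM2 partners, 12 higher of 16 general macrophage markers and 15 higher and 2 lower of 35 lysosomal genes. Other cell types moved along in the same fit, with 12 higher and 1 lower of 14 B and plasma cell genes, 8 higher of 14 neutrophil genes, 21 higher and 1 lower of 28 other matrix genes and 14 higher and 1 lower of 22 stellate cell genes, and their part was not tested. Mmp12 had 33.9, 104 and 51.2 CPM in rich spots, against 5.56, 26.4 and 8.11 (2.24 ± 0.13), and Atp6v0d2 was at 1.89 ± 0.18. The other largest increases were Afp, the fetal albumin-like protein (2.14 ± 0.32), Adam8 (1.96), the neuronal calcium sensor Hpca (1.78), Ighm (1.76), the leukocyte receptor Slamf7 (1.72), the survival gene Bcl2a1b (1.72), Fam180a (1.68), Slc1a2 (1.68), the macrophage membrane gene Ms4a7 (1.66) and Capn6 (1.62). Saa3 was at -0.02 ± 0.12 and Msln at -0.03 ± 0.45, and neither was called.

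The difference between rich and other spots was then compared between collagen-high and other tissue with an interaction term, on 58, 98 and 66 rich spots and 84, 38 and 31 spots without either gene in scar. Of 10282 genes, 4 had a higher ratio in scar, 0.0389%, and 40 a lower one, 0.389%. No member of the lipid-associated macrophage, TREM2 partner, lysosome or general macrophage lists was among them, and Mmp12 had a term of -0.31 ± 0.30 (adjusted p = 0.892). Of 23 tested stellate cell and myofibroblast genes, 7 had a lower ratio in scar, 30.4%, and none a higher one. That list includes Acta2, Tagln and Tpm2. Of 5 tested genes of the smooth muscle and pericyte list none was called. Acta2 in scar had 42.3, 14.6 and 4.96 CPM in rich spots, against 110.0, 174 and 29.5 in spots without either gene, whereas outside scar it had 17.2, 7.71 and 4.97, against 13.7, 13.3 and 4.64 (term -2.32 ± 0.43, adjusted p = 0.0041). Tagln (-2.02 ± 0.33) and Tpm2 (-1.50 ± 0.26), both of contractile cells, had lower terms too. So did C7 (-1.77 ± 0.30), Gsn (-1.74 ± 0.22) and the stem and duct marker Prom1 (-2.13 ± 0.49). In fibrotic replicate 2, however, Tagln had 23.5 CPM in rich and 29.5 in other scar spots, and 13.7 against 17.1 outside scar. Vwf of large-vessel endothelium had a term of -1.44 ± 0.35, but in fibrotic replicate 2 it had 55.8 CPM in rich and 32.2 in other scar spots, and 14.9 against 9.46 outside scar. Of 9 tested MHC class II and dendritic genes 4 had a lower ratio in scar. H2-Aa had 485, 695 and 578 CPM in rich and 517, 661 and 411 in other scar spots, but 424, 621 and 409, against 231, 317 and 195, outside scar (term -0.85 ± 0.13). The 4 higher ratios were those of Igkv19-93 (3.24 ± 0.65), Saa3 (2.28 ± 0.21), Cadm4 (2.06 ± 0.39) and Slc39a8 (1.28 ± 0.30). In fibrotic replicate 2 Saa3 had 4.96 CPM in rich and 8.06 in other scar spots, and 4.97 against 4.46 outside scar. In that section Slc39a8 had 19.8 against 37.6 in scar and 22.4 against 37.3 outside it. Cadm4 had 8.68 against 8.06 in scar there and 7.46 against 8.13 outside it. Igkv19-93 had 2.48 against 0 and 1.24 against 1.61 CPM in the same order.

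Whether Hk2 deletion changed what marks the rich spots was asked with a spot kind by genotype term, where the lone Hk2-deleted section is assumed to vary like the fibrotic ones. Of 12968 genes, 4 had a higher ratio in the Hk2-deleted section, 0.0308%, and 6 a lower one, 0.0463%, while 622 had an unadjusted p under 0.05 and DESeq2 called none. No gene of the lipid-associated macrophage, TREM2 partner or general macrophage lists was called, with medians of -0.09, -0.13 and -0.29. The lower ones were led by granule proteases and peroxidase of immature neutrophils. Elane had 4.09 CPM in rich spots against 12.2 in the others in the Hk2-deleted section, and 28.9 and 11.1 against 7.80 and 5.67 in the fibrotic sections (term -3.21 ± 0.42, adjusted p = 0.00015). Mpo (-3.26 ± 0.47), Ctsg (-3.43 ± 0.55) and Prtn3 (-2.52 ± 0.42) were lower too, but unevenly. Their log2 ratios were -1.12, -1.33 and -0.91 in the Hk2-deleted section and 2.52, 2.89 and 2.00 in fibrotic replicate 1. In fibrotic replicate 2 they were 1.08, 0.35 and 0.48. Iglc1 (-1.34 ± 0.27) and Ighj4 (-0.77 ± 0.16) had lower terms as well. Iglc1, named here after its value was seen, had a ratio of 0.55 in the Hk2-deleted section, between 2.39 and 0.51 in the fibrotic sections. Its term was 0.07 without fibrotic replicate 1. The higher ones were Mgp (1.07 ± 0.18), Col1a1 (0.80 ± 0.15), Col5a2 (0.76 ± 0.15) and Col1a2 (0.70 ± 0.14). Without surface spots those 3 collagen terms were -0.33, -0.13 and -0.23, Elane was at -2.30 ± 0.60 (adjusted p = 0.166), and none of the 10 genes was called. For Hk2 the term was -1.43 ± 0.54 (adjusted p = 0.975), with log2 ratios of 0.16 in the Hk2-deleted section and 1.63 and 1.44 in the fibrotic sections.

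Rich spots were chosen for the 2 genes and the spots around them for having neither, so a difference between a rich spot and its neighbours is not independent of the choice of spots. Ctss was at 621, 721 and 565 raw CPM in the rich spots, at 275, 269.7 and 224 in spots without either gene that touched one, and at 219, 199.7 and 159 in such spots 4 or more steps away (raw counts, no test). Mmp12 was at 36.2, 138 and 53.6 raw CPM in rich spots, at 7.95, 35.9 and 12.3 beside them and at 4.11, 21.4 and 5.40 at 4 or more steps. Among the spots without either gene, both were higher in each section where these touched a rich spot than 4 or more steps away. Among spots with 2000 or more UMIs, Ctss was higher at a higher share of the 2 genes: it was at 229, 226 and 171 raw CPM where neither was found, at 251, 279.5 and 188 in the lower part of the remaining spots, at 348, 402 and 307 in their upper part and at 621, 721 and 565 in rich spots.

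**Figure D5:**
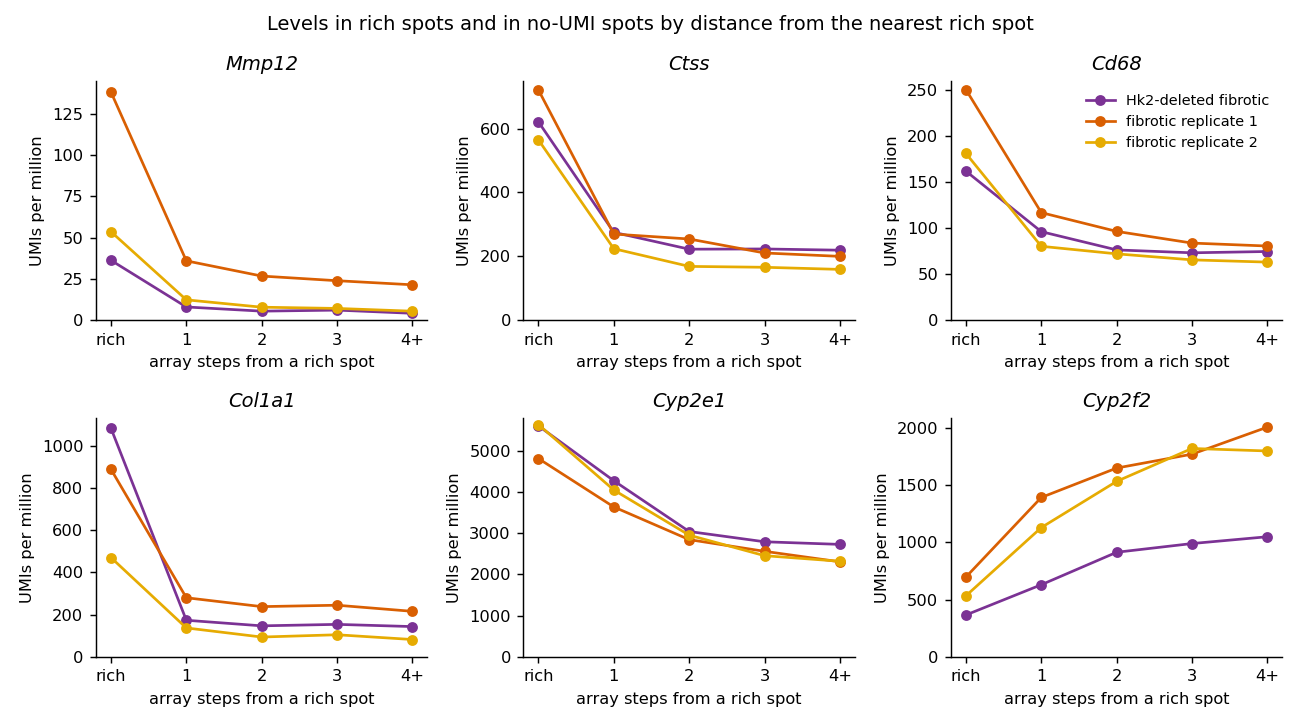
Raw CPM (y, linear from 0) of 6 genes in rich spots and, among spots without a UMI of either gene, by array steps from the nearest rich spot (x), 1 line per CCl4 section. The kind of spot changes between the rich spots and the first step; among the spots without either gene, Ctss is at 224 to 275 beside a rich spot and at 159 to 219 at 4 or more steps.

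In the test, spots beside a rich spot were set against spots more than 2 steps away, both without a UMI of either gene. Of 11449 genes, 261 were higher beside, 2.28%, and 300 lower, 2.62%. Of 24 lipid-associated macrophage genes 6 rose and 1 fell: Mmp12 by 0.69 ± 0.16, Ctsk by 0.66 ± 0.20, Fabp5 by 0.49 ± 0.09 and Cd68 by 0.37 ± 0.07, while Spp1 was at -0.90 ± 0.05. C1qa rose by 0.30 ± 0.05 and Ctss by 0.34 ± 0.05. Zone moved along: 7 of 8 pericentral landmarks were higher and 10 of 12 periportal ones lower, with Cyp2e1 at 0.62 ± 0.03 and Cyp2f2 at -0.66 ± 0.04. The largest increases were Ighg2b (1.27), the stellate cell factor Lhx2 (0.92), Slc13a3 (0.85), Rspo3 (0.83), Adamts12 (0.81), Adamts13 (0.80), Cd207 (0.78) and Gstm3 (0.76). The largest decreases that are named were those of Prom1 (-1.36), Sfrp1 (-1.35), C7 (-1.30), Mgp (-1.28), Mfap4 (-1.04), Cyp17a1 (-0.92) and Dpep1 (-0.90). Within the pericentral zone 3 genes were higher, 0.0391% of 7670, and 7 lower, 0.0913%, and none of 20 lipid-associated macrophage genes was called, in a fit on fewer spots.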

How the data were processed

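Visium counts of 4 mouse liver sections were used. The deposited matrices hold raw UMI counts per gene and spot, made with Space Ranger 2.0.0 per the file headers, and mm10 is the build in the submitters' processing notes. For the probe set, the version is not given in the sources used here. Per gene and section, the authors' deposited spatial table gives Moran's I, a score. Array barcodes are fixed: 1878 occurred in all 3 CCl4 sections and are not shared cells.

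Counts were summed per section and spot kind and tested with edgeR 4.0.16 (quasi-likelihood, TMM, filterByExpr, section as block, R 4.3.3), with Benjamini-Hochberg adjustment at 0.05; DESeq2 1.42.0 was an alternative. Normalised CPM, log2 folds and SEs were computed from the deposited counts, and the SE is the log2 fold over the root of F. Intervals are exact and cover counting error only. Figures and counts used matplotlib 3.10.9, numpy 2.4.6 and scipy 1.17.1. Tested on simulated data at the same depth, the main comparison called 82% of genes changed by 1 on the log2 scale, and the genotype term 36%.

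Named genes are the 12 largest called changes each way (8 for the genotype, scar and neighbour comparisons) with at least 10 CPM in 1 spot kind and, for differences between spot kinds or places but not for interaction terms, the same sign in every section, up to 4 called members per list, and fixed landmarks. For the genotype term, genes where the Hk2-deleted section's ratio fell between those of the fibrotic sections were not named, except Iglc1. Members, lists and genes were chosen with earlier results of these data known. The zone score used 9 pericentral and 12 periportal landmarks. The pericentral-zone comparison was added after seeing the data. Sections are separate mice, 1 library each. The section block is the pairing, since both spot kinds come from the same section.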

Additional observations from a re-analysis of the deposited data

Results flagged for a closer look

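The genotype term differed from 0 by edgeR's test for 10 genes, with the single Hk2-deleted section on one side. The terms were -3.43 for Ctsg, -3.26 for Mpo, -3.21 for Elane, -2.52 for Prtn3, -1.34 for Iglc1 and -0.77 for Ighj4, and 0.70 for Col1a2, 0.76 for Col5a2, 0.80 for Col1a1 and 1.07 for Mgp. DESeq2 called none of them. Leaving out either fibrotic section leaves no residual degrees of freedom, so no test could be made without fibrotic replicate 1, the section that goes against its sex label.

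The rich-spot difference itself differed between collagen-high and other tissue for 4 genes with a higher ratio in scar and 40 with a lower one.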

How the results depend on the processing

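Counts of called genes kept within 1.5 times of the reported ones except as follows, and the cause was not tested. For rich against no-UMI spots (2223 higher, 2150 lower), DESeq2 gave 1282 and 1382, library size alone 5622 and 672, matched spots 641 and 672, the pericentral zone 1115 and 1133, and no replicate block 1286 and 739; leaving out 1 section gave 1662 to 2096 and 1698 to 2000. For the genotype term (4 higher, 6 lower), DESeq2 gave 0 and 0, no filter on low counts 13 and 11, all other spots 11 higher, the top 10 percent 27 and 16, no surface spots 2 and 6 with none of the 10 genes among them, and the pericentral zone 0 and 2 with 1 of them. Outside scar, DESeq2 gave 545 and 527, and leaving out 1 section 753 to 931 higher, the lowest without fibrotic replicate 1. For the scar term (4 and 40), DESeq2 gave 0 and 16, no filter 23 and 66, the top 20 percent as scar 1 and 10, and leaving out 1 section 2 to 5 higher and 21 to 37 lower, with 21 without fibrotic replicate 1 and 24 without fibrotic replicate 2. For spots beside rich ones (261 and 300), DESeq2 gave 71 and 92, no surface spots 199 lower, the pericentral zone 3 and 7, and leaving out 1 section 142 to 201 higher and 159 to 185 lower. Averaged over sections, 82.8% of rich spots were pericentral and 43.2% collagen-high; spots chosen by Trem2 alone gave 69.8% and 30.5%.

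Signs turned in these cases. Without surface spots Saa3 was -0.0259, and the genotype terms of Col1a1, Col5a2 and Col1a2 were -0.33, -0.13 and -0.23. In the pericentral zone Sdsl was 0.16, Spp1 0.18 and Cyp2e1 -0.18, and with matched spots Cyp2e1 was -0.0223 and Mki67 -0.0300. Tfe3 was -0.0429 with Trem2 alone. Acta2 ran from -0.75 without the Hk2-deleted section to 0.39 without fibrotic replicate 1, and was 0.19 with library size alone, 0.23 against all other spots and 0.0035 with no replicate block. Leaving out either fibrotic section, the genotype term of Iglc1 ran from -1.85 to 0.0698. Outside scar, leaving out 1 section gave -0.0378 to 0.0443 for Saa3 and -0.32 to 0.14 for Msln, with 0.0037 for Msln without fibrotic replicate 2. Genes near 1 to 10 CPM rest on few UMIs.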
